A study of Homo sapiens with 4 samples.

Results

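The BCL2 family decides whether a stressed cell keeps its mitochondria intact or opens them. Its genes described here number 10 and were picked by name from a list of survival and death members: the anti-apoptotic MCL1, BCL2, BCL2L1 and BCL2A1, the BH3-only death genes PMAIP1, BBC3, BCL2L11 and BID, and the pore formers BAX and BAK1. Of these 10 genes, 9 had at least 1 probe set annotated to their symbol alone, out of 19775 such genes on the array. BBC3 had no probe set of its own and is described only through a probe set it shares.

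The cells were U937, an established human line from a lymphoma that grows as immature monocyte-like cells and is known to lack working p53. RNA came from 4 groups of 1 array each: the combination (Sonazoid at 0.05% with ultrasound), ultrasound only, Sonazoid only at 0.05%, and untreated control cells. Ultrasound was given at 0.3 W/cm2 and lasted 1 min in both groups that received it. Sonazoid is a contrast agent of gas microbubbles for ultrasound imaging. All treated cells were kept for 3 h before RNA was taken; no incubation time is stated for the control cells. Each group is 1 array of RNA from 1 cell line, so no difference below has a replicate check, no test was made, and treatment, culture and array cannot be told apart.

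The anti-apoptotic members hold BAX and BAK1 in check at the mitochondrial outer membrane. BH3-only proteins are made or activated under stress, dock into the groove of the anti-apoptotic members, and free or directly activate BAX and BAK1, which then release cytochrome c. MCL1 is a short-lived protein that cells must keep making, and NOXA, the product of PMAIP1, binds MCL1 and BCL2A1 in preference to the other anti-apoptotic members. Myeloid cells are known to lean on MCL1 and BCL2A1 for survival.

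Signals are linear probe set intensities after each array was multiplied by a factor to bring its trimmed mean to the common one (0.923 for the combination, 1.07 for ultrasound only, 0.977 for Sonazoid only and 1.04 for control). A floor at the overall median of the scaled signals, 23.8, replaced anything lower before log2 was taken. A gene was represented by its brightest probe set, and a difference was counted at 2-fold, a log2 difference of 1. The myelomonocytic markers fit the label: 11 of 13 on the table lay above the floor in the combination, 11 with ultrasound only, 12 with Sonazoid only and 11 in control, with summed signals of 37275, 43208, 35126 and 38595 in that order. Those at the floor were MPO on 3 arrays and FCGR1A on all 4. The brightest were CTSG, ELANE and LYZ, at 11558, 8897 and 5863 in the combination. Of all 19775 genes 12093 lay above the floor in the combination, 12252 with ultrasound only, 11984 with Sonazoid only and 12018 in control. A count above the floor alone is therefore a weak sign of cell type. Markers of other cell types were dim but not all at the floor. The summed signals of the T cell list were 21.5 in the combination, 45.3 with ultrasound only, 90.2 with Sonazoid only and 44.9 in control, with CD3D and CD8A below the floor on all 4 arrays, CD3E above it on 2 and CD3G on 1. CD79A, HBB and COL1A1, of the B cell, erythroid and fibroblast lists, lay above the floor on all 4 arrays. The keratin gene KRT8, of the epithelial list, had 59.2 in the combination, 43.2 with ultrasound only, 38.6 with Sonazoid only and 18.6, under the floor, in control, which is at least 2.48-fold higher in the combination. The part of such signals in the results was not tested. The ratio of the 3' to the 5' control probe set of GAPDH, a sign of RNA integrity, lay between 0.946 and 1.01 on the 4 arrays.

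MCL1 was the member that differed most, and it stood high on both arrays with ultrasound. The gene lies at chr1:150574558-150579610 (GRCh38.p14, as all positions here). Its brightest probe set, 200797_s_at, had a signal of 4762 in the combination, 5199 with ultrasound only, 2057 with Sonazoid only and 2085 in control. Both arrays with ultrasound thus lay above both arrays without it, and the nearest 2 arrays of the sides were 2.28-fold apart. MCL1 was 2.28-fold higher in the combination than in control and 2.49-fold higher with ultrasound only than in control, while Sonazoid only and control differed by 1.01-fold. Among the 8922 genes with a signal above 100 on at least 1 array, MCL1 ranked 53 from the top in the combination against control and 51 with ultrasound only against control.

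All 6 probe sets of MCL1 were higher on both arrays with ultrasound. In the combination against control their log2 differences ran from 1.11 to 1.93 with a median of 1.34, and 6 of 6 reached 2-fold. With ultrasound only against control they ran from 0.81 to 1.62 with a median of 1.28, and 5 of 6 reached 2-fold. With Sonazoid only against control they ran from -0.05 to 0.58 with a median of 0.12, 4 above 0 and 2 below, the highest a bound, and 0 of 6 reached 2-fold. The exception with ultrasound only was 227175_at, a dim probe set with signals of 64.6 in the combination, 52.2 with ultrasound only, 31.8 with Sonazoid only and 29.9 in control. The highest values came from 214057_at, which lay under the floor in control, so its 3.81-fold and 3.07-fold are lower bounds. For each of the 6 probe sets both ultrasound arrays lay above both others, with at least 1.64-fold between the nearest arrays. For comparison, 1.42% of the 24584 single-symbol probe sets measured in the combination against control reached 2-fold higher, and 1.59% of 24639 with ultrasound only against control. The probe sets of 1 gene share the RNA of 1 array and are not replicates.

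**Figure D1:**
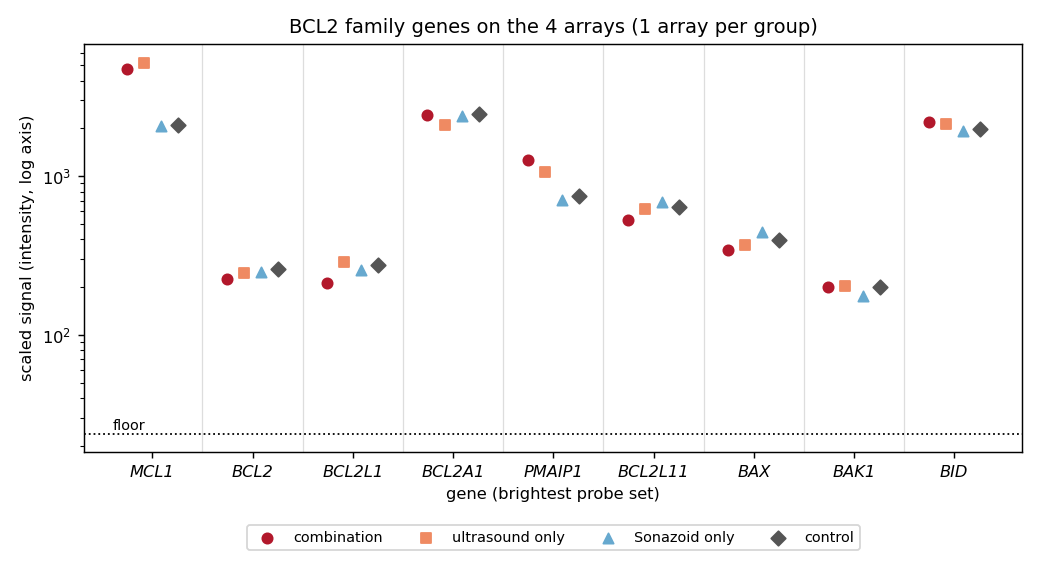
Scaled signal (vertical log axis, intensity) of the brightest probe set of each of the 9 measured members (horizontal axis) on the 4 arrays, 1 point per array with no error bar because each group is 1 array. MCL1 stands at 4762 and 5199 on the arrays with ultrasound and at 2057 and 2085 on the others, PMAIP1 shows a smaller gap the same way, and the other 7 genes lie close together; heights are not comparable between genes.

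The other anti-apoptotic genes did not share the MCL1 pattern. BCL2A1 (chr15:79960892-79971196), a myeloid survival gene and NF-kB target, had signals of 2441 in the combination, 2105 with ultrasound only, 2392 with Sonazoid only and 2480 in control. The sides overlapped, with ultrasound only the lowest array. Its log2 difference from control was -0.02 in the combination, which turned positive with the values as deposited, and -0.24 with ultrasound only, where MCL1 had 1.19 and 1.32.

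BCL2 (chr18:63123346-63320090), the founding member, had signals of 226 in the combination, 245 with ultrasound only, 249 with Sonazoid only and 261 in control on its brightest probe set, the 4 arrays lying within 1.15-fold. A dim second probe set, 203684_s_at, had 47.8 in the combination, 22.4 with ultrasound only, 58.3 with Sonazoid only and 56.7 in control. It was below the floor with ultrasound only, which gives at least 2.38-fold lower than control there, but 1.19-fold lower in the combination. The other 2 probe sets of BCL2 were below the floor on 4 and on 3 arrays.

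BCL2L1 (chr20:31664452-31723963), whose long form BCL-XL protects and whose short form promotes death, was lowest in the combination on its brightest probe set. It had 213 in the combination, 286 with ultrasound only, 256 with Sonazoid only and 275 in control. The combination was 1.34-fold below ultrasound only, 1.29-fold below control, and its log2 difference from Sonazoid only was -0.26. Its 3 other probe sets were also lower in the combination than with ultrasound only (log2 from -0.82 to -0.18 over all 4), the 1 at -0.67 being a bound because the combination lay under the floor there. With ultrasound only the 4 probe sets were higher than control by 0.06 to 0.67 on the log2 scale, the highest a bound because control lay under the floor.

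PMAIP1, which encodes the MCL1-binding BH3-only protein NOXA, was the other member higher on both ultrasound arrays by over 1.4-fold. It lies at chr18:59899996-59904305. Its brightest probe set, 204285_s_at, had signals of 1260 in the combination, 1069 with ultrasound only, 705 with Sonazoid only and 745 in control. It was 1.69-fold higher in the combination than in control and 1.43-fold higher with ultrasound only than in control, so it did not reach 2-fold. The second probe set, 204286_s_at, had signals of 704 in the combination, 701 with ultrasound only, 304 with Sonazoid only and 266 in control. On that probe set PMAIP1 was 2.65-fold higher in the combination and 2.64-fold higher with ultrasound only than in control. Both probe sets placed the ultrasound arrays above the others, by 1.43-fold between the nearest arrays on the first and 2.30-fold on the second. Whether PMAIP1 is counted at 2-fold therefore rests on the probe set: the mean of both gave a log2 difference of 1.08 in the combination and 0.96 with ultrasound only against control. Both are of the kind that may bind several transcripts, and which transcripts each reads was not tested.

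BBC3 encodes PUMA, a BH3-only protein that binds every anti-apoptotic member; the gene lies at chr19:47220824-47232860. Its 1 probe set, 211692_s_at, is annotated to 3 genes, BBC3, MIR3190 and MIR3191, so its signal cannot be assigned to BBC3 alone and it was left out of every count. That probe set had 108 in the combination, 110 with ultrasound only, 91.9 with Sonazoid only and 63.7 in control. All 3 treated arrays stood above control, Sonazoid only included, and the nearest arrays of the ultrasound and other sides were 1.17-fold apart.

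BCL2L11 encodes BIM, a BH3-only protein made as several splice forms (chr2:111120914-111168445), and had the most probe sets of the members (7, all above the floor on all 4 arrays). Its brightest, 225606_at, had signals of 528 in the combination, 618 with ultrasound only, 684 with Sonazoid only and 636 in control, lowest in the combination. The second brightest, 1553096_s_at, had 585 in the combination, 581 with ultrasound only, 538 with Sonazoid only and 498 in control, highest in the combination. Of the 7 probe sets 3 had both ultrasound arrays above both others, 3 had both below, and 1 overlapped. The log2 differences from control ran from -0.39 to 0.23 in the combination and from -0.14 to 0.22 with ultrasound only. No probe set of BCL2L11 reached 2-fold in any of the 5 comparisons, and the direction of the gene depended on which was read.

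BID (chr22:17734138-17774665), a BH3-only protein that caspase cleavage activates, had signals of 2189.6 in the combination, 2119 with ultrasound only, 1934 with Sonazoid only and 1976 in control. The ultrasound arrays were higher by 1.07-fold between the nearest arrays. The other 2 probe sets did not repeat this: on 227143_s_at the ultrasound arrays were the lower pair (1013 in the combination and 969 with ultrasound only, against 1134 with Sonazoid only and 1060 in control), and on 204493_at the sides overlapped.

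**Figure D2:**
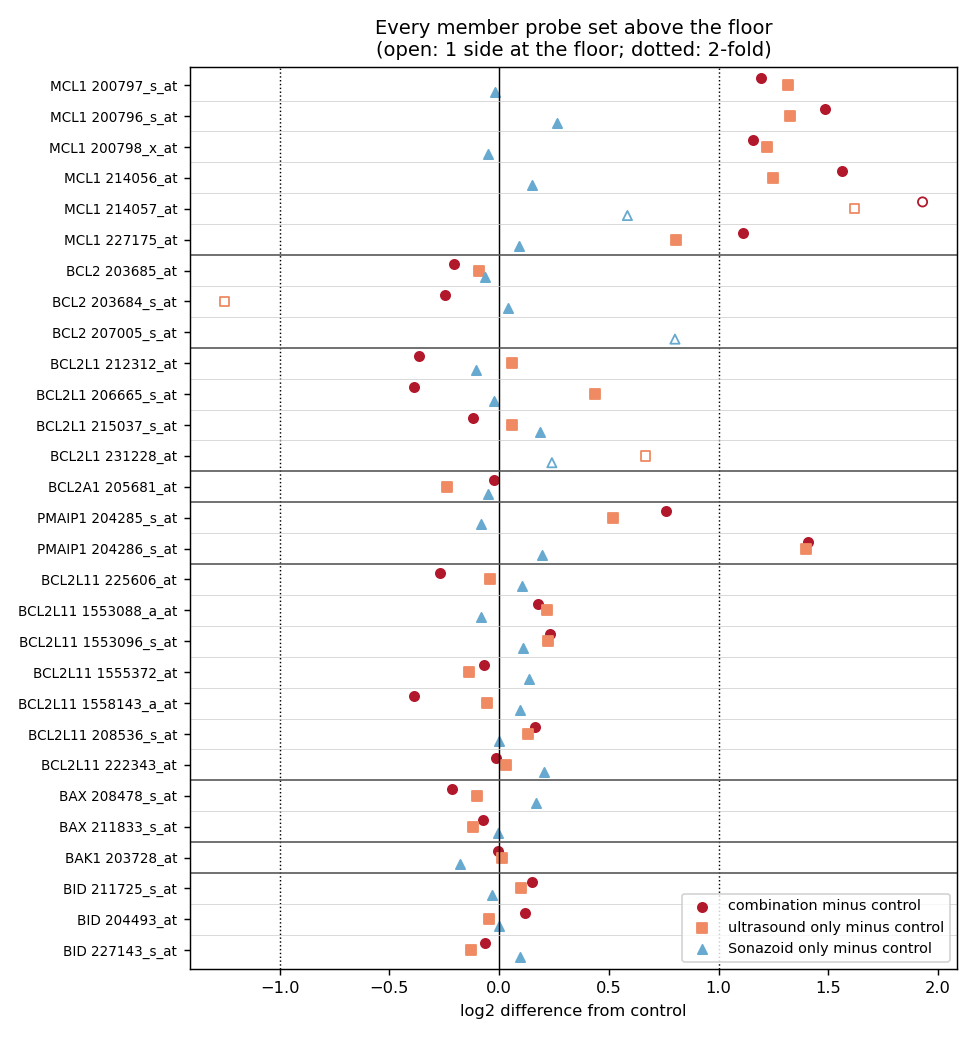
Log2 difference from control (horizontal axis) for the 29 member probe sets above the floor on at least 1 array (rows, grouped by gene), for the combination, ultrasound only and Sonazoid only. All 6 rows of MCL1 and both rows of PMAIP1 lie to the right in the combination and with ultrasound only; open symbols have 1 side at the floor, dotted lines mark 2-fold, and each point is 1 array against the 1 control array.

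The promoters of PMAIP1, BCL2A1 and BCL2L11 are shown because PMAIP1 stood higher on the ultrasound arrays while the brightest probe sets of the other 2 did not. For BCL2L11 this depended on the probe set, since 3 of 7 had both ultrasound arrays above both others. The sequences shown are the 250 bases before the annotated start in RefSeq, GRCh38.p14, 5' to 3' on the strand of the gene. For PMAIP1 they are chr18:59899746-59899995 (plus strand), for BCL2A1 chr15:79971197-79971446 (minus strand) and for BCL2L11 chr2:111120664-111120913 (plus strand). Capitals mark matches on either strand to 4 motifs: the half-site TGACGT of ATF and CREB factors, the AP-1 site TGANTCA, the forkhead site GTAAACA and the GC box GGGCGG. No match in these 3 windows overlaps another.
PMAIP1: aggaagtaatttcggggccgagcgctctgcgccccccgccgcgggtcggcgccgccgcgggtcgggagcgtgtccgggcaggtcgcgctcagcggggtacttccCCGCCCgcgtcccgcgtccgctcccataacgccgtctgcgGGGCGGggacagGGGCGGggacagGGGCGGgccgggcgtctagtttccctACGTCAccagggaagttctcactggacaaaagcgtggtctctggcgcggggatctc
BCL2A1: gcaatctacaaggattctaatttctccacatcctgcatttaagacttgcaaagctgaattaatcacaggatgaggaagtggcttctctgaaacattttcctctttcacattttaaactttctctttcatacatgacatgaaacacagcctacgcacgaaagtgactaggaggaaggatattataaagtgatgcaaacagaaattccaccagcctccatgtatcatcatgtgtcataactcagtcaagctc
BCL2L11: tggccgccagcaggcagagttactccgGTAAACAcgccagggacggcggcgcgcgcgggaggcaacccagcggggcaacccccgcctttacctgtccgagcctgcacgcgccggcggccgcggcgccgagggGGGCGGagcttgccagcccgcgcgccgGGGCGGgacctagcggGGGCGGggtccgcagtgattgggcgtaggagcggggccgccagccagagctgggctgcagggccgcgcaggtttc

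In windows of 250 bases before to 50 after the start, all members but MCL1 had at least 1 of 14 RefSeq entries, with several starts for BID and BCL2L1. MCL1 was not searched. Of the 9 genes searched, the half-site TGACGT was found in PMAIP1 alone, read on the opposite strand as ACGTCA with its first base 56 bases before the start; 7.98% of 35116 promoter entries hold it. The AP-1 site was found in BBC3 alone, where 7.71% of entries hold it, and the forkhead site in BCL2L11 alone, 223 bases before the start, where 3.42% do. The GC box was found in 6 members (BAK1, BAX, BCL2L1, BCL2L11, BID and PMAIP1), against 45.0% of all entries. A gene counted where any of its entries matched, so BID and BCL2L1, with several entries, had more chances to match than a single entry. The BCL2A1 window holds none of the 4 and is 41.0% G and C, against 71.3% for PMAIP1 and a median of 58.7% over all entries. A match is a string of letters, not a site shown to be bound, and these motifs were chosen with the expression values known.

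The pore formers differed little. BAX (chr19:48954875-48961798), which moves from cytosol to mitochondria on activation, had 342 in the combination, 370 with ultrasound only, 446 with Sonazoid only and 397 in control. Both ultrasound arrays were the lower ones by 1.07-fold between the nearest arrays, and by 1.05-fold on its other probe set. BAK1 (chr6:33572552-33580276), which resides on the mitochondrion, had 199 in the combination, 202 with ultrasound only, 177 with Sonazoid only and 200.0 in control, and overlapped between the sides. In RNA from whole cultures, fewer cells of a kind and less RNA per cell cannot be told apart, which holds for every value above.

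As counts of genes, 1 of the 9 measured members, MCL1, was at least 2-fold higher in the combination than in control and 0 were 2-fold lower, where 1.39% of 12962 measured genes were higher and 0.872% lower. With ultrasound only against control the counts were again 1, MCL1, and 0, where 1.65% of 13043 genes were higher and 0.721% lower. With Sonazoid only against control 0 members reached 2-fold either way, where 0.652% of 12875 genes were higher and 0.715% lower. In the combination against ultrasound only, too, 0 members reached it, where 0.7% of 13151 genes were higher and 1.16% lower. In the combination against Sonazoid only MCL1 alone was higher and 0 members were lower, where 1.46% of 12931 genes were higher and 0.711% lower. The first 3 comparisons share the control array. The median log2 difference of the 9 members was -0.02 in the combination and 0.01 with ultrasound only against control, beside -0.0030 and 0.02 over all measured genes.

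The 4 arrays can also be read as 2 with ultrasound and 2 without, although the arrays of a side differ in Sonazoid and are not replicates. Of the 9 members 3 (MCL1, PMAIP1 and BID) had both ultrasound arrays above both others, where 18.8% of 13965 genes did. Another 3 (BCL2, BCL2L11 and BAX) had both below, where 17.8% did, and the remaining 3 overlapped. With at least 1.5-fold between the nearest arrays, 1 member, MCL1, was above, where 1.05% of genes were, and 0 were below, where 0.337% were. The share of members separated without regard to size was thus 3 of 9 each way, and the gaps of BID, BCL2, BCL2L11 and BAX were at most 1.07-fold.

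Ultrasound was added in 2 array pairs with no array in common: the combination set against Sonazoid only, and ultrasound only set against control. For MCL1 the log2 differences were 1.21 with Sonazoid present and 1.32 without it. For PMAIP1 they were 0.84 and 0.52 on its brightest probe set, and 1.21 and 1.40 on the other. These 2 genes lie in the upper right of the plot of the ultrasound differences, and the other 7 lie in the cloud of all genes. The 2 differences had the same sign for 7 of 9 members, where 62.3% of the 8922 genes above 100 had. Of these 7, BCL2L11, BAK1 and BID changed sign with ultrasound only against control under at least 1 alternative processing. On the brightest probe sets the departure from additivity, the first difference minus the second, ran from -0.33 (BCL2L11) to 0.32 (PMAIP1) over the members. That lies inside the span between the 5th and 95th percentiles of the 8922 genes, -0.55 and 0.46. Other probe sets went beyond it, at -0.80 and 0.96 for BCL2 and -0.91 for BCL2L1, each with at least 1 array under the floor. The BCL2L1 probe set 206665_s_at, above the floor on all 4 arrays, gave -0.80. Adding Sonazoid to ultrasound gave MCL1 a log2 difference of -0.13 on its brightest probe set, but 4 of its 6 probe sets were higher in the combination than with ultrasound only, by up to 0.31, and the sign also turned with the values as deposited.

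**Figure D3:**
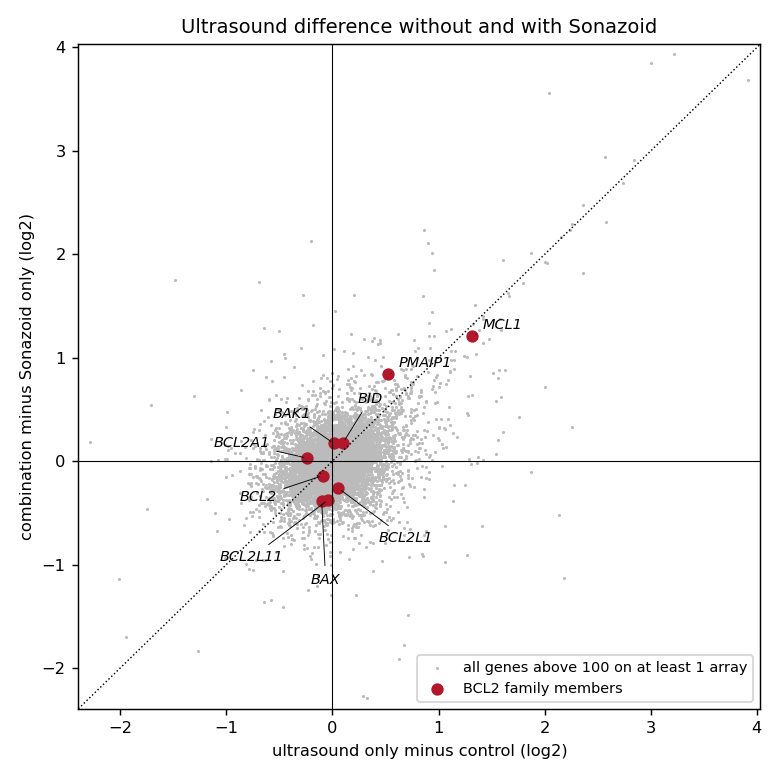
Log2 difference of ultrasound only minus control (horizontal axis) against that of the combination minus Sonazoid only (vertical axis) for the 8922 genes above 100 on at least 1 array (grey) and the 9 members (red), with equal values on the dotted line. MCL1 lies at 1.32 and 1.21 near the line and PMAIP1 at 0.52 and 0.84, while the other members lie between -0.38 and 0.18 on both axes.

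The 6 genes whose 3 differences from control (combination, ultrasound only, Sonazoid only) lay closest to those of MCL1, out of 8913 genes above 100 on at least 1 array, were TREM1, CRIP1, TNFRSF12A, TICAM1, RGCC and S100A10. Their Euclidean distances from MCL1 on the log2 scale ran from 0.11 to 0.22, where the 1st percentile of genes lay at 0.78 and the median at 1.79. The 6 genes were picked as the closest, so their nearness is not a separate result. TREM1, a receptor that amplifies inflammatory signals in myeloid cells, had signals of 168 in the combination, 199 with ultrasound only, 76.0 with Sonazoid only and 74.4 in control. CRIP1, a small LIM domain protein, had 2290 in the combination, 2432 with ultrasound only, 947 with Sonazoid only and 934 in control. All 3 differences of a gene share the control array, and likeness over 4 arrays says nothing of shared control.

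Among 13 other BCL2 family genes 9 were measured in the combination against control, with a median log2 difference of -0.09. Of these 9 genes 0 reached 2-fold higher or lower, where 1.39% of all measured genes were higher and 0.872% lower. The BH3-only gene BMF was 1.46-fold lower (48.4 in the combination, 73.0 with ultrasound only, 40.9 with Sonazoid only and 70.8 in control), low on both arrays with Sonazoid. BNIP3L, a mitophagy receptor, was 1.41-fold higher and stood above control on all 3 treated arrays, with 581 in the combination, 581 with ultrasound only, 602 with Sonazoid only and 412 in control. BIK, a BH3-only protein of the endoplasmic reticulum, was 1.22-fold lower than control in the combination. It was 1.16-fold lower with ultrasound only and 1.43-fold lower with Sonazoid only. BAD, a BH3-only protein silenced by phosphorylation, was 1.28-fold higher in the combination and 1.59-fold higher with ultrasound only than in control, while its 2 other probe sets lay between -0.48 and 0.11 (log2) in these comparisons. BCL2L10, BCL2L14 and BOK were under the floor on all 4 arrays.

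Of 14 genes of the mitochondrial death step 13 were measured. On their brightest probe sets 0 reached 2-fold in the combination or with ultrasound only against control, with medians of -0.04 and -0.02. Over all measured genes 1.39% were higher and 0.872% lower in the combination, and 1.65% and 0.721% with ultrasound only. The 2 other above-floor probe sets of VDAC1, a mitochondrial death step gene, ran from -1.12 to 0.08 (log2) with ultrasound only against control. APAF1, the scaffold of the apoptosome, had 111 in the combination and 175 in control, 1.57-fold lower, but a second probe set had a log2 difference of 0.14. CASP8, the initiator caspase that cleaves BID, was 1.36-fold higher, with signals of 655 in the combination, 577 with ultrasound only, 501 with Sonazoid only and 481 in control. Its other above-floor probe set had log2 differences from control of 0.39 in the combination but -0.16 with ultrasound only. XIAP, a caspase inhibitor, had log2 differences from control of 0.36 in the combination and -0.27 with ultrasound only, and its 6 other probe sets ran from -0.09 to 1.08 (log2) in the combination. ENDOG, a mitochondrial nuclease, had a log2 difference of -0.33 in the combination.

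On their brightest probe sets the 7 genes that act on the MCL1 protein had log2 differences from control of -0.10 to 0.24 in the combination and of -0.02 to 0.11 with ultrasound only, 0 of 7 reaching 2-fold. Of all measured genes 1.39% were higher and 0.872% lower in the combination, and 1.65% and 0.721% with ultrasound only. The other above-floor probe sets of the 7 genes spread more widely, from -0.71 (HUWE1) to 0.98 (FBXW7) in the combination and from -0.33 (HUWE1) to 0.68 (GSK3B) with ultrasound only. FBXW7, the substrate receptor of a ubiquitin ligase of MCL1, was 1.18-fold and USP9X, a deubiquitinase of MCL1, 1.15-fold higher in the combination than in control; the 3 other probe sets of USP9X ran from -0.06 to 0.09 (log2) there. HUWE1, the ligase also called MULE, had a log2 difference of -0.10, and its 3 other probe sets were also lower in the combination, from -0.71 to -0.12.

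Of 22 transcription factors known to act on member genes 20 were measured in the combination against control, of which 2 were 2-fold higher and 1 was 2-fold lower, where 1.39% of all measured genes were higher and 0.872% lower. With ultrasound only against control 1 of 20, JUN, was 2-fold higher and 0 were lower, where 1.65% and 0.721% of all measured genes were. JUN, an AP-1 subunit, had 1378 in the combination, 1306 with ultrasound only, 550 with Sonazoid only and 522 in control. On this brightest probe set the split by ultrasound was like that of MCL1. The 3 other above-floor probe sets of JUN ran from 0.98 to 2.00 (log2) in the combination and from 0.58 to 1.52 with ultrasound only against control. ATF3, a stress factor of the CREB family that binds the PMAIP1 promoter, had 145 in the combination, 113 with ultrasound only, 33.7 with Sonazoid only and 60.4 in control. It was 2.40-fold higher in the combination and 1.87-fold higher with ultrasound only than in control, but its 2 other probe sets lay between 0.00 and 0.28 (log2) in the combination and between 0.65 and 0.82 with ultrasound only. SPI1, the myeloid factor PU.1, had 59.3 in the combination, 106 with ultrasound only, 83.0 with Sonazoid only and 120 in control, a dim signal. It was 2.03-fold lower than control in the combination, 1.13-fold lower with ultrasound only and 1.45-fold lower with Sonazoid only. ATF4, the effector of the integrated stress response, was 1.49-fold higher in the combination and 1.30-fold higher with ultrasound only. FOXO1, a forkhead factor that acts on BCL2L11, had a log2 difference of -0.58 in the combination against control, but 0.06 on its other probe set. STAT5B had -0.44 there, and -0.20 and 0.08 on its 2 other probe sets.

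**Figure D4:**
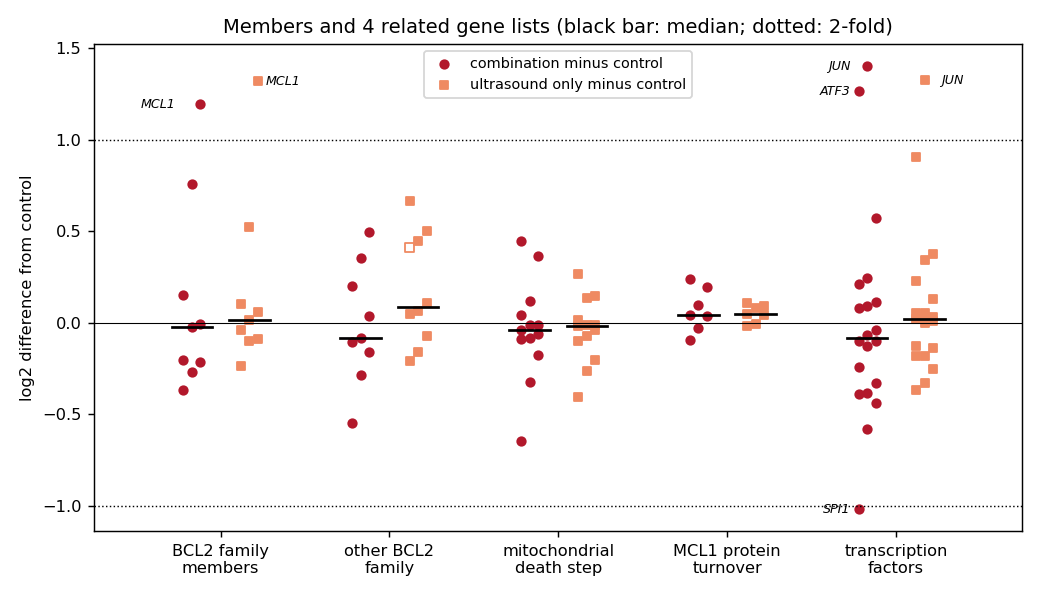
Log2 difference from control (vertical axis) for each measured gene of the members and of 4 related lists (horizontal axis), for the combination and for ultrasound only, with black bars at the medians and dotted lines at 2-fold. MCL1, JUN, ATF3 and SPI1 are the named genes past 2-fold, and the medians of the lists lie between -0.09 and 0.09; open symbols have 1 side at the floor.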

How the data were processed

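Per the series' design text, each of the 4 samples was hybridised to 1 Affymetrix Human Genome U133 Plus 2.0 array. The authors deposited a linear intensity for each probe set on each array; no source used here names how probes were summarised or scaled. Of 54675 probe sets 41097 had 1 symbol in the platform annotation, 1801 several and 11777 none; RefSeq (GRCh38.p14) supplied current symbols by Entrez identifier, and 62 control probe sets were left out. Of the 30 probe sets of a member alone 29 exceeded the floor on some array.

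Arrays were scaled to the common mean after trimming 2% at each end, which had differed 1.16-fold, floored and log2-transformed (Python 3.11.15, pandas 2.3.3, scipy 1.17.1); the calculation was tested on simulated data. The number of arrays limits the precision. All members were named, and of the other lists every gene past 1.5-fold in the combination or with ultrasound only against control plus up to 3 more farthest from 0. The members, lists and motifs were chosen with earlier results of these data known. Probe set suffixes _s_at, _x_at and _a_at mark probe sets that may bind several transcripts. Alternatives were no scaling, quantile normalisation, a stricter floor of 100, a lower floor, the mean of probe sets and gene-specific probe sets.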

Additional observations from a re-analysis of the deposited data

Results flagged for a closer look

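On the BCL2L1 probe set 206665_s_at ultrasound went opposite ways without and with Sonazoid, each by at least 1.2-fold: the combination had 49.7 against 63.9 with Sonazoid only, and ultrasound only had 87.9 against 65.0 in control. The log2 difference with Sonazoid minus that without was -0.80; the difference was not tested, since each side is 1 array pair, and the signal is dim. The brightest BCL2L1 probe set gave -0.32.

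The probe set annotated jointly to BBC3, MIR3190 and MIR3191 was kept out of the counts, and its signal lay above control in the combination by a log2 difference of 0.76.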

How the results depend on the processing

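MCL1 stayed past 2-fold under all 6 alternatives, between log2 1.18 and 1.56 in the combination and between 1.25 and 1.32 with ultrasound only against control. The stricter and the lower floor could not change its values, because its brightest probe set lay above 100 on every array. With the mean of above-floor probe sets PMAIP1 joined MCL1 at 2-fold. That raised the count of members to 2 in the combination against control, where 138 of 13057 genes were 2-fold higher. The count also rose to 2 in the combination against Sonazoid only, where 143 of 13026 genes were higher. Under the same setting the count separated by 1.5-fold on the ultrasound arrays rose to 2. With gene-specific probe sets, which PMAIP1 and BAX lack, 3 members were separated by ultrasound instead of 6. Shares over all genes for these separation counts are not given here. Of 248 values of single members under alternatives 246 kept their side of 2-fold. This count was in part fixed in advance. The brightest probe sets of all measured members lay above 100 on every array, so a change of floor left their values the same. Values near 0 could hardly cross 2-fold either. Signs were less stable: BCL2A1 and BAK1 turned positive in the combination against control with the values as deposited. Without scaling the median of all genes in the combination against control moved to 0.16 (log2), and the genes at 2-fold numbered 301 higher and 73 lower instead of 180 and 113. With the floor of 100 they numbered 49 and 13, and with the lower floor 1531 and 1354. No paired analysis was possible because each group has 1 array and the labels give no replicate numbers. Depth of signal limits the dim probe sets most, since a difference near the floor is a bound.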
